A study of Rattus norvegicus with 18 samples.

Results

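The part of the genome described here is the span of rat chromosome 20 from base 1000001 to base 6000000 of the rn6 build, which holds RT1, the major histocompatibility complex (MHC) of the rat. Its members are all cytosines of the deposited methylation table with a start in that range, 14788 of 2330883 cytosines. The 62994 other cytosines of chromosome 20 and the whole table served for comparison. Cytosines were also averaged in tiles of 1000 bp with at least 3 measured cytosines, which gave 751 tiles in the span and 151450 in the table.

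The levels come from reduced representation bisulfite sequencing (RRBS), in which DNA is cut with MspI at CCGG and bisulfite turns unmethylated cytosines into bases read as thymine. The DNA was from the left hippocampus of 18 rats, all adult males of the outbred Sprague-Dawley stock. The series set seizure rats against sham rats in 2 models of temporal lobe epilepsy, to find what changes while epilepsy develops. The first group (KI_3ClassV) holds 4 rats with 3 class V seizures after electrical kindling, in which a hippocampal electrode delivers repeated brief stimulation, and its sham group (KI_Sham) holds 4 rats. The other model's seizure group (KA_3ClassV) holds 3 rats with 3 class V seizures after systemic kainic acid, a glutamate receptor agonist that induces status epilepticus, and its sham group (KA_Sham) holds 7 rats. Seizure rats were sampled 24 hours after the last seizure, seizure rats of both models carried electrodes by the design text, and what else was done to the sham rats was not given in the sources used here. Each library is 1 rat and the tissue is whole hippocampus, so a level is a mean over all its cell types, and cell numbers cannot be told apart from levels within cells. The table gives fractions without read numbers, so the depth behind a value is unknown and single values carry no interval.

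The MHC holds neighbouring groups of immune genes. Class I genes (RT1-A and RT1-CE in the rat) encode cell surface proteins that show peptides from inside the cell to killer T cells, class II genes encode proteins that show taken-up peptides to helper T cells, and class III holds complement and cytokine genes such as Lta among many housekeeping genes. In the brain, class I is low at rest, rises in glia and neurons under inflammatory signals, and has been tied to the pruning of synapses. The MHC is one of the most variable regions of mammalian genomes.

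No annotation of the rn6 build was at hand, so genes were placed by their CpG spacing. RefSeq promoter sequences of the GRCr8 build, 250 bases before to 50 bases after each gene start, were laid over the measured CpG positions, and 54 promoters of 49 genes fell in the span, 53 of them at 1 place in the whole table. The same search placed 0 of 32501 promoters from other chromosomes there. The placed genes include the class I genes RT1-A1, RT1-A2, RT1-CE5 and RT1-CE16, the class III genes Lta, Neu1, Skic2, Bag6 and Lsm2, and neighbours such as Rxrb, Ring1 and Daxx, which fits the name of the span. Other genes of the span, the class II genes among them, were not placed and are not described by name.

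The following 4 promoter sequences carry the results on RT1 and on sequence context. Each is the 250 bases upstream of the gene start on the gene's own strand, from RefSeq on GRCr8. RT1-CE5 lies at chr20:3484091-3484340 (minus strand) and was placed, with its 50 downstream bases, at chr20:4896942-4897241 of rn6. Its capitals mark the 6 CpGs that differed by at least 40 points between rats. RT1-A2 lies at chr20:4872621-4872870 (plus strand) and Lta at chr20:3623277-3623526 (plus strand), with capitals on the measured CpGs. Daxx lies at chr20:4977721-4977970 (minus strand), with capitals on its 3 CCGG sites.
RT1-CE5: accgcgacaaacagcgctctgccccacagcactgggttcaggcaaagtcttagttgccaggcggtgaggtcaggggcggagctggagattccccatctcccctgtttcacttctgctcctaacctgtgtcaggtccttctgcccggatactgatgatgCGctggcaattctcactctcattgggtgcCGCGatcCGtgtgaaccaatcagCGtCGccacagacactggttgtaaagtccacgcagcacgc
RT1-A2: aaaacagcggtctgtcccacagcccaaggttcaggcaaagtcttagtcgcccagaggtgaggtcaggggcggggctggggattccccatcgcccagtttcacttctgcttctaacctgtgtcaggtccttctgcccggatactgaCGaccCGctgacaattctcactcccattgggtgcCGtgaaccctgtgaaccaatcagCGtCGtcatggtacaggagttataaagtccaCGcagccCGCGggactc
Lta: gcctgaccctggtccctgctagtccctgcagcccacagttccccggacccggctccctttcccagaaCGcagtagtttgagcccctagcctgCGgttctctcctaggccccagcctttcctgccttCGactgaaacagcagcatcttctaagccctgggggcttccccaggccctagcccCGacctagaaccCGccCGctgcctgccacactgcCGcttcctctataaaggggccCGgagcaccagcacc
Daxx: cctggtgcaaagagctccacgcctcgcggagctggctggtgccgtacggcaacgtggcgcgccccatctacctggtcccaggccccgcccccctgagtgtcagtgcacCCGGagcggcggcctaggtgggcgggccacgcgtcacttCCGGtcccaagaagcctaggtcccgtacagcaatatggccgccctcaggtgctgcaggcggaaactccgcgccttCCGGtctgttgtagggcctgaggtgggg

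The span was richer in unmethylated tiles and poorer in fully methylated tiles than the table. Tiles with a mean level under 10% made up 14.1% of the span (106 of 751) and 8.70% of the table. Tiles over 90% made up 21.97% of the span (165) and 36.5% of the table, and tiles in between 63.9% (480) and 54.8%. Among 444 windows of 5 Mb, the span had the 442nd highest share of tiles over 90% and the 37th highest share of tiles under 10%. Over cytosines the mean level of the span was 38.6%, against 42.6% in the table and 50.6% in the rest of chromosome 20. Coverage was uneven, with 15 cytosines in the first 0.5 Mb and 2568 in the last. The lowest mean, 20.8% over 2155 cytosines, stood between bases 3000001 and 3500000, where the promoters of Gnl1 (a GTPase gene), Tubb5 (a tubulin) and Flot1 (flotillin) were placed.

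**Figure D1:**
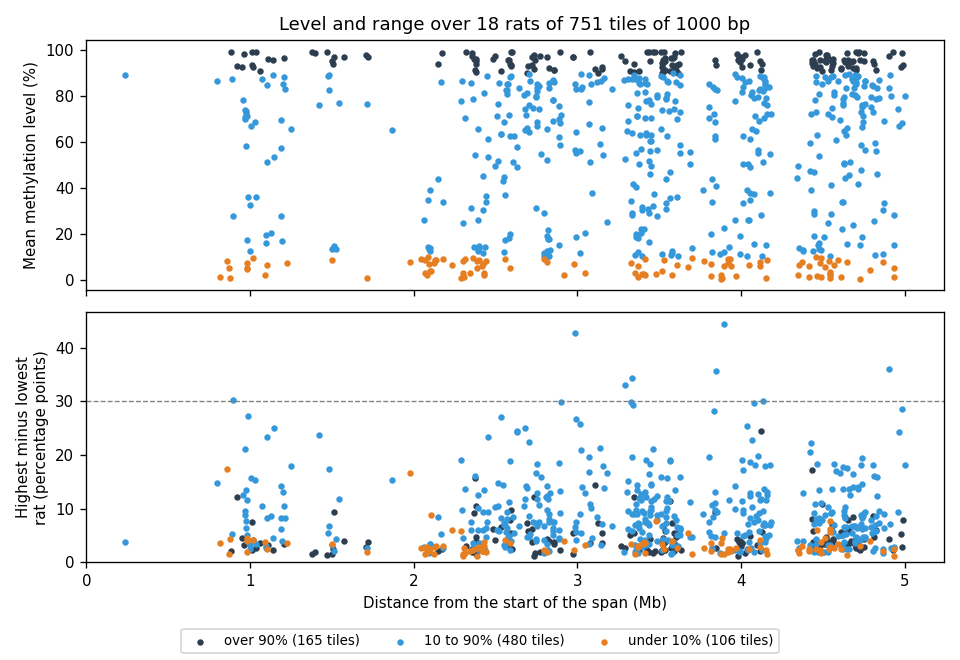
Each point is a tile of 1000 bp of the span, plotted by its distance from the span's start in Mb. The upper panel gives the mean methylation level over 18 rats in percent, coloured by class, and the lower panel the highest minus the lowest rat in percentage points. Most tiles stay below the dashed line at 30 points, and 8 reach it.

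The densest tiles of each class hardly differed between rats. Of tiles under 10%, the densest held 169 cytosines at the shared promoter region of Mapk14 (the p38 alpha kinase) and Slc26a8 (an anion transporter), chr20:5933001-5934000, with 4.47 to 5.76% in the 18 rats. A tile of 140 cytosines at chr20:4698001-4699000 had 8.48 to 10.1%. The densest tiles of the middle class, chr20:4437001-4438000 with 170 cytosines and chr20:4576001-4577000 with 169, had means of 16.7% and 12.7%. That second tile was a mixture, with 149 of its 169 cytosines under 10% and 20 over 90%. The first had 99 of 170 under 10%, 13 over 90% and the rest in between. For tiles over 90%, the densest held 64 cytosines at chr20:3382001-3383000 (91.3 to 95.3%) and 51 at chr20:4614001-4615000 (88.8 to 91.5%).

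Within promoters, the level followed the sequence around the cytosine. Inside the 54 placed promoters, 125 measured cytosines lay in CCGG, the site MspI cuts, and their mean level was 97.1% (96.5 to 98.1% in single rats), with 121 of 125 over 90% and 0 under 10%. The 1440 other CpG cytosines of the same promoters had a mean of 2.92% (1.95 to 4.40% in single rats), with 1388 under 10% and 7 over 90%. Even where the nearest other CpG was under 10%, 114 of 118 CCGG cytosines were over 90%. The Daxx promoter, of a transcriptional corepressor and histone H3.3 chaperone, shows this: with its CCGG cytosines it averaged 13.6%, and without them 1.56%. The cause of the CCGG levels was not tested. Outside placed promoters the sequence context is not known here, so the level classes and tile means above include CCGG cytosines.

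**Figure D2:**
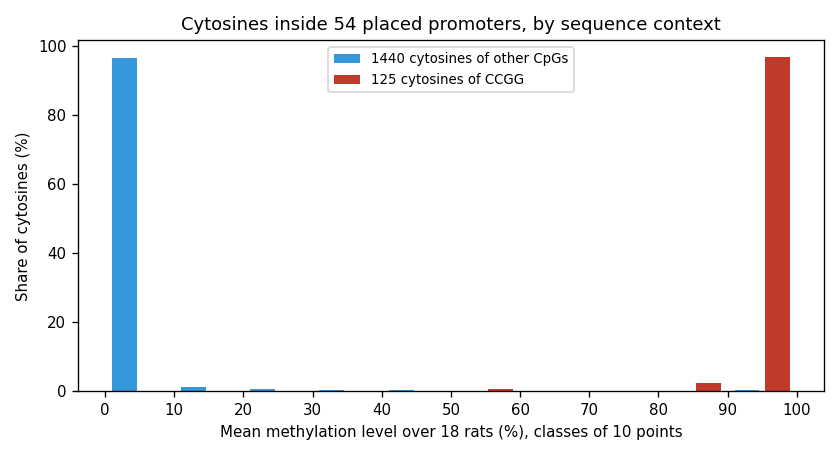
Bars give the share of cytosines (percent, vertical axis) in classes of 10 points of mean methylation level over 18 rats (horizontal axis), for 125 CCGG cytosines (red) and 1440 other CpG cytosines (blue) inside 54 placed promoters. The CCGG cytosines pile up over 90% and the others under 10%.

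Nearly all placed promoters were unmethylated in every rat once CCGG was left out. Of 54, 52 averaged under 10% and 49 under 5%. Placement needed at least 8 measured CpGs, so these are promoters rich in CpGs, some of them overlapping. Promoters with fewer CpGs are not described. Among the class I genes, RT1-A2 averaged 1.98% (0.432 to 3.68% over rats), RT1-A1 2.94% (1.37 to 5.44%), RT1-CE16 2.37% (0.606 to 5.62%) and RT1-CE5 6.18% (0.367 to 26.8%). Rxrb, a retinoid X receptor gene, averaged 1.49%, Ring1, a Polycomb ubiquitin ligase subunit, 1.68%, and Neu1, the lysosomal sialidase, 2.41%. Both exceptions were methylated in all rats. Lta (sequence above), which encodes the cytokine lymphotoxin alpha, averaged 78.2% (70.1 to 82.6%), and LOC134483856, a locus without a gene name, averaged 31.1% (26.3 to 35.7%). A range of at least 20 points occurred only at RT1-CE5 and at LOC134483853, whose promoter overlaps that of RT1-CE5 on the other strand.

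The RT1-CE5 promoter was methylated in 4 rats and unmethylated in the other 14. Over the 6 CpGs capitalised above, which lie 36 to 91 bases upstream of the gene start, the level was 1.33, 0.331, 56.1 and 0.658% in kindling seizure rats 1 to 4 and 0.471, 1.65, 40.7 and 0.359% in kindling sham rats 1 to 4. Kainic acid seizure rats had 0.519, 1.74 and 1.80%, and the 7 kainic acid sham rats had a lowest of 0.779%, a median of 1.81% and a highest of 54.8%, with rat 4 at 46.6% and rat 6 at 54.8%. The high rats thus came from 1 seizure group and both sham groups, and in each model the seizure and sham ranges overlapped. The other 7 measured CpGs of the promoter, from 46 bases inside the gene to 9 bases upstream of its start, had 0.220 to 2.72% in all 18 rats, the high rats included. Each of the 4 rats stayed near a middle level, 38 to 61% at each of the 6 CpGs. The RT1-A2 promoter, 80.5% identical to that of RT1-CE5 by alignment, averaged under 4% in every rat, and RT1-A1 (66.1% identical) under 6%. Reads of such similar class I copies can be split between genes, and the part of this in the levels was not tested.

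**Figure D3:**
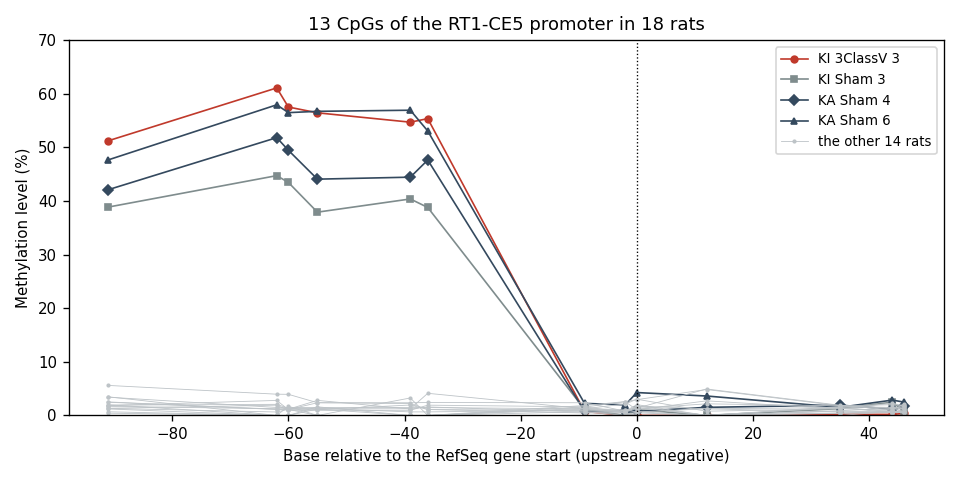
Each line is a rat, with the methylation level in percent (vertical axis) at 13 CpGs against the base relative to the gene start of RT1-CE5, upstream negative (horizontal axis). In 4 rats the 6 CpGs farthest upstream lie between 38 and 61%, while the 7 nearer to or inside the gene, and all CpGs of the other 14 rats, lie near 0.

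Few tiles varied widely between these outbred rats. A range of at least 30 points between the highest and lowest rat was found in 8 of 751 tiles (1.07%), against 2458 of 151450 in the table (1.62%), which put the span 318th of 444 windows. This order turned round with the number of cytosines, of which a tile held a median of 10 in the span and 7 over the whole table. Among tiles of at least 5 cytosines, 7 of 621 in the span (1.13%) and 0.847% in the table reached 30 points. With the second highest minus the second lowest rat, the count was 3 of 751 (0.399%, and 0.532% of the table). With tiles of 2000 bp it was 3 of 592 (0.507%, and 1.49% of the table). Without kainic acid sham rat 2 it was 4 of 751 (0.533%, and 1.58% of the table). The widest range, 44.4 points, was that of chr20:4897001-4898000, the tile that holds the varying CpGs of RT1-CE5.

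Several other wide tiles were set by 1 to 3 rats. At chr20:3986001-3987000 (5 cytosines) the levels were 49, 56.3, 78.6 and 53.8% in kindling seizure rats, 50.9, 51.2, 86.4 and 50% in kindling sham rats and 53.0, 48.2 and 52.8% in kainic acid seizure rats, with a lowest of 43.8%, a median of 50.5% and a highest of 78.8% in kainic acid sham rats. Kindling seizure rat 3, kindling sham rat 3 and kainic acid sham rat 2 were the high ones there, and the groups overlapped. At chr20:4292001-4293000 (9 cytosines) and chr20:5134001-5135000 (4 cytosines), 17 rats lay at 48.4 to 53.4% and 47.8 to 52.0%, and kainic acid sham rat 2 at 81.5 and 78.0%. Both tiles were mixtures, so a mean near 50% is not a level of single cytosines. Under 10% were 4 of 9 and 2 of 4 cytosines, and over 90% 3 of 9 and 2 of 4. At the CpGs of bases 4292197 and 5134175 in them, kainic acid sham rat 2 had 70.7 and 57.2%. That rat was also highest, at 82.3%, at chr20:4333001-4334000 (34.3 points). At chr20:5905001-5906000 the lowest rats were kindling seizure rat 4 (57.7%) and kainic acid sham rat 1 (64.4%), with the others at 75.9 to 93.6%. At the CpG of base 5905196 in it, these rats had 0 and 1.43%. CpGs of all the tiles of this paragraph return in the joined CpG sets below, so tiles and sets are not separate results.

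At chr20:3897001-3898000, just under 30 points wide, kindling sham rats 4 and 3 (92.4 and 85.5%) and kainic acid sham rat 2 (85.1%) were high, and the other 15 rats lay at 62.6 to 74.6%. The remaining wide tiles had levels of 21.4 to 57.0% at chr20:4844001-4845000, 7.42 kb from the Lta promoter, and of 19.3 to 49.2% at chr20:4329001-4330000, also just under 30 points wide. The best covered was chr20:1897001-1898000, with 51 cytosines and 12.8 to 43.0%. Its values were 39.5, 39.7, 26.5 and 26.9% in kindling seizure rats, 40.3, 21.6, 43.0 and 15.7% in kindling sham rats, and 37.5, 13.8 and 38.5% in kainic acid seizure rats. In kainic acid sham rats the lowest was 12.8%, the median 24.1% and the highest 27.8%, so both models had overlapping groups.

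Averaged over all tiles, rats differed less in the span than elsewhere, but this difference did not pass in either alternative, chosen after seeing the data, that took account of the number of cytosines in a tile. The mean absolute deviation of a rat from the tile medians was 1.57 ± 0.272 points in the span and 1.70 ± 0.213 points in the rest of the table (SD, n = 18), a difference of -0.135 points (two-sided paired permutation test with 100000 resamples, p = 0.00512). It was lower in the span in 15 of 18 rats. Here and in the alternatives below, the deviations are from medians that all rats share, so the 18 values are not independent. The test covers 1 span and does not say how unusual it is among regions. Among tiles of at least 5 cytosines the means were 1.47 ± 0.281 points in the span and 1.53 ± 0.196 points in the rest (SD, n = 18), a difference of -0.0620 points (permutation p = 0.146). With the rest weighted to the cytosine numbers of the span it was 1.57 ± 0.272 points in the span and 1.55 ± 0.198 points in the rest (SD, n = 18), a difference of 0.0197 points (permutation p = 0.621). The 3 rats with a larger deviation in the span in the comparison of all tiles, kindling seizure rat 3 (0.220 points higher), kindling sham rat 3 (0.117) and kainic acid sham rat 2 (0.215), were the high rats of chr20:3986001-3987000 named above.

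Single CpGs varied about as often in the span as elsewhere. With both strands averaged, the span held 8473 CpGs, and 187 (2.21%) had a range of at least 40 points, against 2.15% in the table. They lay in 133 tiles, while 8 tiles had a range of at least 30 points. Both strands were measured at 63 of these 187 CpGs, against 6315 of all 8473, so for most varying CpGs the strands could not be compared. Where both were measured, their levels were similar. Of 63 varying CpGs measured on both strands, 0 differed by more than 20 points between strands, and the median difference was 4.41 points, against 2.13 points at the other CpGs. In 70 of the 187 a single rat departed from the median by at least 20 points.

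No correlated block was found among the 8 varying tiles, where a block was at least 3 varying tiles with an absolute r of at least 0.8, each within 100 kb of the next. The whole table held 10 such blocks of 33 tiles in all. At the level of CpGs, chosen after these counts were seen, varying CpGs joined at an absolute r of at least 0.8 at any distance within the span formed 5 sets of at least 5 CpGs in at least 3 tiles, with 85 CpGs together. The largest sets, of 22 CpGs, ranked 27th among 409 windows of 5 Mb, whose median was 6 and maximum 145. As a share of the varying CpGs of a window, the largest set of the span (11.8%) ranked 223rd, near the median window (12.3%). All r values were taken over the same 18 libraries and are descriptions.

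Some of these sets reached across much of the MHC and followed particular rats. At 18 CpGs from base 3379398 to base 5155574, among them those of RT1-CE5, the same 4 rats departed from all others (kindling seizure rat 3, kindling sham rat 3 and kainic acid sham rats 4 and 6). Of their 72 values, 60 lay between 30 and 70%, while the median over rats was over 90% at 7 of these CpGs and under 10% at 6. Those 6 are the varying CpGs of RT1-CE5, where the 4 rats lay above all others. At the rest of the 18 CpGs the 4 rats lay below all others. Kainic acid sham rat 2 departed alone at 23 CpGs from base 3645828 to base 5624428, more than any other rat (0 to 10). Its values there were 27.8 to 70.7%, and 21 of 23 lay between 30 and 70%, where the median over rats was under 10% at 12 CpGs and over 90% at 7. In another set of 21 CpGs, from base 3828438 to base 5740860, kindling seizure rat 3 and kindling sham rat 3 departed at 20 CpGs each, kainic acid sham rat 2 at 13 and kindling sham rat 4 at 10. No kainic acid seizure rat was among the rats that led these 3 sets, and with 3 animals that group is also the smallest.

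At the 23 CpGs of kainic acid sham rat 2, kainic acid sham rat 3 moved the same way by a median of 10.3% of that rat's departure and was second at 12 of 23, while the median of each of the other 16 rats was 0. The part of this in the results was not tested. In these 3 sets, most members were isolated. Of the 22 CpGs of the set around RT1-CE5, 20 had another measured CpG within 100 bp, and for 12 of these no such neighbour was in the set. In the set of kainic acid sham rat 2 this held for 19 of 21, and in that of 21 CpGs for 18 of 20. In both smaller sets described next it held for 4 of 9 and 2 of 7. Neither the DNA sequence of these rats nor the context of these CpGs is known here.

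**Figure D4:**
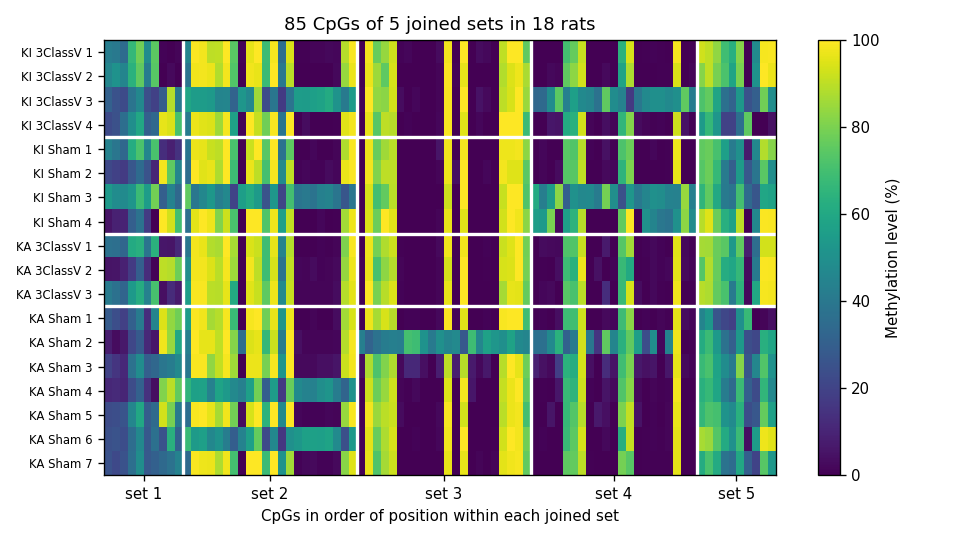
Rows are the 18 rats by group and columns are 85 CpGs of the 5 joined sets in order of position, coloured by methylation level in percent. In set 2 kindling seizure rat 3, kindling sham rat 3 and kainic acid sham rats 4 and 6 stand apart. At most of its CpGs they lie at middle levels where the others are near 0 or near 100. In set 3 the same holds for kainic acid sham rat 2.

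The remaining 2 sets were smaller and lay at the ends. One joined 10 CpGs from base 1897458 to base 2560434 and includes the tile of 51 cytosines described above, and the other joined 10 CpGs from base 5811373 to base 5991462. Likeness fell with distance. Pairs of varying CpGs under 100 bp apart had a median absolute r of 0.767 (78 pairs), those 1 to 10 kb apart 0.274 and those 1 to 5 Mb apart 0.186. In the rest of the table these medians were 0.721, 0.469 and 0.190. At 1 to 5 Mb, 2.17% of 9068 pairs of the span had an absolute r of at least 0.8, against 0.355% of pairs in the rest of the table. The pairs share libraries and CpGs, so no test was made of this. The rest pools the pairs of many windows, and the span was not ranked among windows by this share.

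In both models the mean level of the span was slightly higher in seizure rats, and neither difference passed the test. In kindling it was 39.1, 38.5, 39.4 and 38.2% in seizure rats and 39.0, 38.0, 38.7 and 38.3% in sham rats. The group means were 38.8 ± 0.550% and 38.5 ± 0.441% (SD, n = 4 each), which differed by 0.314 points (exact permutation test, two-sided, p = 0.4). In kainic acid the 3 seizure rats had 38.8, 39.0 and 39.0%, and the 7 sham rats a lowest of 38.1%, a median of 38.4% and a highest of 39.0%. The means were 38.9 ± 0.0977% (SD, n = 3) and 38.5 ± 0.333% (SD, n = 7), which differed by 0.457 points (exact permutation test, two-sided, p = 0.0833). Groups overlapped in both models. Over the whole table, kindling seizure rats had 43.0, 42.4, 43.3 and 42.3% and kindling sham rats 42.9, 42.1, 42.7 and 42.2%. Kainic acid seizure rats had 42.7, 42.9 and 42.9% there, and kainic acid sham rats a lowest of 42.1%, a median of 42.5% and a highest of 42.9%. The seizure groups thus also had the higher means over the whole table, and the span differences were not tested against it. The smallest p these designs allow is 0.0286 for kindling and 0.0167 for kainic acid. Without kainic acid sham rat 6 the kainic acid difference was 0.546 points with an exact permutation p of 0.0238.

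By class, the difference was largest at cytosines of middle level. These averaged 56.5 ± 0.505% in kindling seizure rats and 55.8 ± 0.636% in kindling sham rats (SD, n = 4 each; exact permutation p = 0.143, adjusted 0.429 over 6 comparisons). Kainic acid seizure rats averaged 56.7 ± 0.299% (SD, n = 3) and kainic acid sham rats 55.8 ± 0.497% (SD, n = 7), with an exact permutation p of 0.0333 that was 0.2 after adjustment. Over 90% the kainic acid difference was 0.00477 points. Values of exactly 0, whose share can move with depth, made up 7.91 to 11.0% in kainic acid seizure rats and 8.37 to 20.4% in kainic acid sham rats, and the part of this in the differences was not tested.

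No tile of the span was called in either model. Of 406 tiles with a range of at least 5 points, limma with Benjamini-Hochberg adjustment over 84599 tiles called 0 for kindling, 0 for kainic acid and 0 for the difference between models, as it did in the whole table (0.0% called in each). At an unadjusted p under 0.05, kindling had 10 of 406 tiles (2.46%), against 5.71% of the table, 8 of them higher (3.59% of the table) and 2 lower (2.12% of the table). Kainic acid had 16 (3.94%), against 3.54% of the table, 8 higher (2.13% of the table) and 8 lower (1.41% of the table). The difference between models had 7 (1.72%), against 4.75% of the table, 3 higher (2.3% of the table) and 4 lower (2.45% of the table). Seizure and sham rats did not overlap at 9 tiles in kindling (2.22%, and 2.44% of the table) and at 8 in kainic acid (1.97%, and 1.49% of the table). None of these shares was tested against the table. The median difference over the 406 tiles was 0.477 points in kindling (0.299 over all tiles) and 0.504 points in kainic acid (0.310), and half-widths of the 95% interval had a median of 3.95 and 3.86 points per tile. The largest absolute difference was 8.65 points for kindling and 15.0 points for kainic acid.

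The tile with small p values in both models was chr20:4483001-4484000, with 24 cytosines, 31.9 kb from the nearest placed promoter (LOC134483856). It had 33.6, 32.3, 29.4 and 29.4% in kindling seizure rats and 25.6, 27.3, 24.9 and 22.3% in kindling sham rats. Every kindling seizure rat lay above every kindling sham rat. The limma difference was 6.15 ± 1.95 points (SE; adjusted p = 0.779). Kainic acid seizure rats had 29.7, 34.3 and 28.9%, and kainic acid sham rats a lowest of 21.97%, a median of 26.9% and a highest of 30.2%. These groups overlapped, and the limma difference was 4.78 ± 1.90 points (SE; adjusted p = 0.9999).

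At the Lta promoter, chr20:4852001-4853000 with 18 cytosines, kindling seizure rats had 84.8, 83.8, 83.0 and 86.0% and kindling sham rats 80.6, 82.9, 76.7 and 82.0%. The groups did not overlap in the tile, but rat 3 of the seizure group and rat 2 of the sham group were nearly level. Over the placed promoter alone, outside CCGG, they overlapped, with 78.2% in seizure rat 3 and 78.5% in sham rat 2. The limma difference was 3.86 ± 1.44 points (SE; adjusted p = 0.825). In kainic acid the levels were 82.7, 84.5 and 82.8% in seizure rats and 81.2% (lowest), 82.5% (median) and 85.8% (highest) in sham rats, a difference of 0.290 points.

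**Figure D5:**
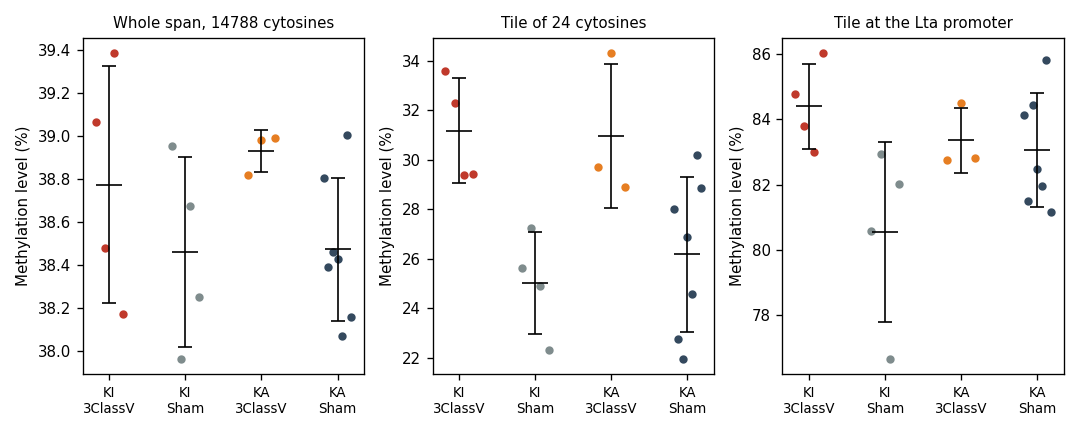
Points are rats, bars are group means with SD, and the vertical axes give the methylation level in percent (axes do not start at 0) of the whole span, of tile chr20:4483001-4484000 (24 cytosines) and of the Lta promoter tile. Kindling seizure rats lie above kindling sham rats in both tiles, and seizure and sham rats overlap in the whole span.

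The other tiles with the smallest p are given as values, since none was called. In kindling the smallest p of the span stood at chr20:5831001-5832000 (5 cytosines), with 87.8, 85.9, 81.0 and 87.8% in seizure rats and 82.8, 76.3, 77.3 and 77.3% in sham rats. Seizure rat 3 was below sham rat 1, so the groups overlapped, and the limma difference was 7.19 ± 2.22 points (SE; adjusted p = 0.776). Further higher tiles in kindling were chr20:5436001-5437000, 4.54 kb from the promoter of Vps52 (a vesicle tethering subunit), at 2.84 points, and chr20:5741001-5742000 at 4.03 points. Tiles with lower values were chr20:3316001-3317000 (-5.77 points), chr20:4523001-4524000 (-2.63), chr20:2006001-2007000 (-6.24), chr20:5129001-5130000 (-2.02) and chr20:5424001-5425000, 9.53 kb from RT1-A1 (-5.33). The limma adjusted p of these ran from 0.792 to 0.884.

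In kainic acid the smallest p stood at chr20:3591001-3592000 (6 cytosines), with 92.1, 91.5 and 90.6% in seizure rats and 92.6% (lowest), 94.3% (median) and 96.1% (highest) in sham rats. Every seizure rat lay below every sham rat, and the limma difference was -2.87 ± 0.944 points (SE; adjusted p = 0.9999). At chr20:4442001-4443000 (8 cytosines) seizure rats had 55.9, 58.2 and 54.2% and sham rats 58.5% (lowest), 64.4% (median) and 70.9% (highest), again without overlap. That limma difference was -8.69 ± 2.88 points (SE; adjusted p = 0.9999), and in kindling the same tile differed by -1.37 points.

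Among higher tiles in kainic acid, chr20:5003001-5004000, 9.22 kb from the promoter of Vars1 (valyl-tRNA synthetase), had 85.1, 89.2 and 83.2% in seizure rats and 79.0% (lowest), 82.3% (median) and 83.6% (highest) in sham rats. The groups overlapped through seizure rat 3, and the limma difference was 4.21 ± 1.42 points (SE). The others were chr20:4806001-4807000 (8.87 points), chr20:5795001-5796000 (3.63) and chr20:5811001-5812000, 3.55 kb from Lhfpl5, a gene needed for hair cell transduction (7.16). Remaining lower ones were chr20:4128001-4129000 (-2.92 points), chr20:5802001-5803000 (-2.60) and chr20:5982001-5983000 (-15.0). The last held 3 cytosines, and its 55.2, 60.2 and 53.5% in seizure rats overlapped with the sham rats (58.0 to 78.7%). Limma's adjusted p was 0.9999 for each of these.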

How the data were processed

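The deposited table holds a methylation fraction (beta value) per CpG cytosine and rat, each strand on its own row, with 0 missing values. Bismark, Bowtie2, methylKit, FastQC and Trim Galore stand in the submitters' processing notes, with rn6 as the build. Their versions, filters and minimum coverage were not given in the sources used here.

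Fractions were multiplied to percent. Group means were compared by two-sided exact permutation tests. Tiles with a range of at least 5 points were fitted with limma 3.58.1 (trend on the mean, R 4.3.3, version 1.17.8 of data.table) in 1 fit over 4 groups with 14 residual degrees of freedom, adjusted by Benjamini-Hochberg over all tiles. The fit was tested on simulated data. Promoters were placed by CpG spacing, which needed at least 8 matched CpGs, 95% of the measured CpGs of the window and 75% of the promoter CpGs between its first and last match, a rule set after matches were seen. Alignments used Biopython 1.88, and other steps Python 3.11.15, numpy 2.4.6, pandas 2.3.3, scipy 1.17.1 and matplotlib 3.10.9.

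Named tiles are the 2 densest of each class, the 10 of widest range and, per model and direction, the 5 of smallest p. Members, lists and tests were chosen with earlier results of these data known. P-values set a difference against the variation between rats. Each rat is 1 library, so rat and library cannot be told apart. Alternatives covered tile length, filters, thresholds, scale, replicate block, fits within 1 model and leaving out each rat.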

Additional observations from a re-analysis of the deposited data

Results flagged for a closer look

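In 93 groups of 4 or 7 rats, 13 gaps of 1 rat to the nearest other exceeded Dixon's 95% critical value, given here as the gap over the group's whole range. Chance flags about 1 in 20 groups, but that rate does not apply to 11 of the 13, which are on tiles or CpGs chosen for a wide range and so for rats that stand apart. The other 2 came from 60 groups, most of them on tiles chosen for a small p, so that rate need not apply to them either. At the 6 varying CpGs of RT1-CE5 the ratio was 0.982 for kindling seizure rat 3 and 0.968 for kindling sham rat 3, and at the tile that holds them (chr20:4897001-4898000) 0.987 and 0.961 for the same rats.

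Kainic acid sham rat 2 stood apart at chr20:4292001-4293000 (0.907), chr20:5134001-5135000 (0.884), chr20:4333001-4334000 (0.714) and chr20:3897001-3898000 (0.630, where it had 85.1% and the other sham rats of its model 66.9 to 73.6%). Kindling sham rat 3 did so at chr20:3986001-3987000 (0.966) and kainic acid sham rat 1 at chr20:5905001-5906000 (0.701).

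Kindling seizure rat 2 was low at chr20:4292001-4293000 (0.842; 48.4%, against 51.7 to 52.4% in the others of its group) and at chr20:5436001-5437000 (0.844; 96.5%, against 97.1 to 97.3%). Kindling sham rat 1 was high at chr20:5831001-5832000 (0.846; 82.8%, against 76.3 to 77.3%). No tile of the span was called for a difference between the models.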

How the results depend on the processing

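No alternative called a tile of the span in either model or between models, and no seizure minus sham difference printed here changed sign. The count of tiles at an unadjusted p under 0.05 moved with the filters. For kindling (10 of 406) it was 22 of 751 without a range filter, against 7707 of 151444 in the table. At a range of at least 10 points it was 5 of 183 (2426 of 42281 in the table). In a fit within 1 model it was 6 of 406 (3527 of 84597 in the table). With 1 rat left out it was 9 to 28. The count was 28 of 400 without seizure rat 4 (7781 of 82880 in the table). It was 19 of 400 without sham rat 1 (6309 of 83857) and 18 of 400 without sham rat 2 (5301 of 83692). For kainic acid (16 of 406) it was 30 of 751 without a range filter, against 6145 of 151444 in the table. At a range of at least 10 points it was 7 of 183 (1463 of 42281 in the table). With 1 rat left out it was 9 to 22, with 9 of 401 without seizure rat 3 (2400 of 83732 in the table). For the difference between models (7 of 406) it was 19 of 751 without a range filter, against 6541 of 151444 in the table. At a range of at least 10 points it was 2 of 183 (2028 of 42281 in the table). Tiles of 2000 bp gave 4 of 322 (3624 of 75930), and the replicate number as a block gave 12 of 406 (4049 of 84599). With 1 rat left out the count ran from 3 to 11. It was 3 of 401 without kainic acid seizure rat 3 (3482 of 83732 in the table). It was 11, of 400 to 405, without kindling seizure rat 4, kindling sham rat 2, kainic acid seizure rat 2 or kainic acid sham rat 6. The table then had 3891 to 4840 such tiles. The block gave 13 and 17 of 406 tiles within the models, against 4916 and 3453 of 84599 in the table. Whether rats with the same number share more than a number is not known here. Over the tested tiles of the table, their deviations from the group means correlated at -0.111 to 0.155 in kindling. In kainic acid they correlated at -0.0418 to -0.0156, and 1 of 7 pairs had its best match in its own number. These values cannot exclude a pairing. In the span, kindling seizure rat 3 and kindling sham rat 3 departed together at 20 and 22 of the 22 CpGs of the set around RT1-CE5.

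At middle-level cytosines the kainic acid difference was 0.892 points, with an exact permutation p of 0.0333 that was 0.2 after adjustment over 6 comparisons. The kainic acid difference in span mean, 0.457 points, had an unadjusted p under 0.05 without sham rat 6 (0.546 points, exact permutation test). It ran from 0.390 to 0.546 with 1 rat left out. That of kindling ran from 0.110 to 0.515. Varying tiles (8) numbered 36 at 20 points (4.79%, and 6.61% of the table) and 2 at 40 points (0.266%, and 0.450% of the table). They numbered 3 with the second highest minus second lowest rat (0.399%, and 0.532% of the table). At 2000 bp they also numbered 3 (0.507%, and 1.49% of the table), and with 1 rat left out 4 to 8. Among tiles of at least 5 cytosines their share was higher in the span (1.13%) than in the table (0.847%). The spread, span minus rest (-0.135 points), was -0.376 at middle-level tiles, -0.203 against the rest of chromosome 20 and -0.156 to -0.125 with 1 rat left out. It no longer passed among tiles of at least 5 cytosines (-0.0620 points, permutation p = 0.146) and turned to 0.0197 points with the rest weighted to the cytosine numbers of the span, both chosen after seeing the data. Blocks of tiles stayed at 0, except for 1 at a range of at least 20 points with no distance limit, an alternative chosen after seeing the data, as were those on CpG sets. CpGs in joined sets (85) numbered 122 at a range of at least 30 points and 11 at a range of at least 60 points. With 1 rat left out they numbered 64 to 88 (64 without kainic acid sham rat 2). With only CpGs measured on both strands, 57 of 63 varying CpGs lay in 5 sets, against 85 of 187 with all CpGs. The 5 sets became 2 at a range of at least 60 points, 2 (115 CpGs) at an absolute r of at least 0.7 and 4 (67 CpGs) at 0.9. Unknown depth limits single values, and the context of cytosines outside placed promoters is unknown.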

Other observations

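Promoters did not all keep their direction between builds. Of the 54 placed, 22 matched rn6 in the direction opposite to GRCr8, and these ran from base 3796026 to base 5155606 of rn6, though the first of them is the only promoter with 2 placements in the table and the next starts at base 3815785. In that stretch 3 matched in the same direction. RT1-CE5, LOC134483853 and Lta were those 3.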
